A study of Mus musculus with 6 samples.

Results

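B cells that are activated through TLR9 enlarge and prepare to divide, which needs amino acids for new protein and single carbon units for nucleotides and for methylation. The genes described here serve that supply. Carriers of the SLC families bring amino acids across the plasma membrane, Phgdh, Psat1 and Psph make serine from a glycolytic intermediate, and the folate enzymes take a carbon unit from serine and pass it on. The methionine cycle uses such units to make S-adenosylmethionine, the methyl donor of the cell. Many of these genes are known targets of ATF4, a transcription factor of the integrated stress response that is controlled mainly at the level of translation when amino acids are scarce.

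The set has 38 genes, which were given as a list of symbols for amino acid uptake and serine and one-carbon metabolism, and all 38 were found among the 23420 genes of the files. All 38 had a value over -0.76 log2 CPM, the level of 10 reads, in at least 3 samples. Cth lay closest to that limit, with exactly 3 samples above it, all of them stimulated with CpG, so it entered the test only through the group in which it was high. Slc7a11 had 5 samples above the limit, and no member fell outside it.

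B cells were purified with beads from the spleens of BALB/c mice, labelled WT and aged 7 to 11 weeks, and kept for 4 hours, at 10 M cells in 1 culture and 10 M per mL, either with CpG ODN 1826 at 10 μg/mL or without any agonist. CpG ODN 1826 is a synthetic DNA oligonucleotide that activates mouse TLR9. There were 3 samples in each group, numbered 1 to 3, of which numbers 1 and 2 were labelled female and number 3 male. The labels name 3 mice and give no other genotype or allele; the cells were wild type in both groups. In such a bulk population fewer cells of a type and less RNA per cell cannot be told apart. The study's methods describe, for MRL/lpr mice, beads that remove cells carrying CD43, CD4, CD8, CD11b, CD11c or Gr-1, which leaves out B cells with these markers.

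Values are the log2 CPM that the authors deposited after quantile normalization, which gives every sample nearly the same distribution, so a change in the total RNA of a cell cannot be seen in them. A gene without reads lies at -5.15, which corresponds to 17.8 M reads counted on genes per sample. All 8 B cell markers on the list were expressed, with summed levels of 2950 to 3370 CPM with CpG and 3950 to 4570 CPM without, whereas the 5 T cell markers found, of 6 listed, summed to at most 0.518 CPM and 3 NK cell markers to at most 1.29 CPM. Myeloid markers summed to 7.35 to 15.6 CPM and plasmacytoid dendritic cell markers to 16.2 to 31.2 CPM, most of it Bst2, which B cells may also carry. The 3 plasma cell markers summed to 407 to 537 CPM with CpG and 727 to 1070 CPM without. Erythroid markers were not absent: their sum ran from 384 to 4910 CPM with CpG and from 404 to 3840 CPM without, and was highest in number 2 of both groups, with Hba-a1 at the level of no reads throughout. Alas2, an erythroid enzyme of heme synthesis, was at 4.86, 8.17 and 5.01 log2 CPM in unstimulated samples 1 to 3 and at 4.70, 8.07 and 5.48 in CpG-stimulated ones.

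Several of these genes carry, near their annotated start, the sequence TGATGNAA, the composite element to which ATF4 binds with C/EBP proteins. RefSeq promoters of 300 bases, 250 before the start and 50 after it, were available for 34 of the 38 members. The element, searched on both strands, was found for 8 of these 34 genes (23.5%), against 4.51% of all 27025 symbols with a promoter, and in 9 of the 47 promoters of members, against 3.97% of all 32851 promoters. Many members are known targets of ATF4, so a higher share among them may follow from the choice of the list. Some genes have several promoters, and the sequences are those of the C57BL/6J reference and not of BALB/c mice. Windows of 5 members that rose with CpG, 1 that fell and 1 that did not pass are shown so that the element can be compared among members that moved differently. Each is printed 5′ to 3′ on the strand of the gene in GRCm38.p6, and capitals mark the element or its reverse complement.
Asns, minus strand, chr6:7693181-7693302: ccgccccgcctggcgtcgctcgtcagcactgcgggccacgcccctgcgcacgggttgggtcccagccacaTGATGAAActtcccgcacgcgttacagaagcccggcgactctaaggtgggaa
Slc1a4, minus strand, chr11:20332685-20332787: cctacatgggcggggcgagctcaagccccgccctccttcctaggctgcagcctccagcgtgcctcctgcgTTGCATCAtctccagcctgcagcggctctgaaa
Pycr1, minus strand, chr11:120643774-120643921: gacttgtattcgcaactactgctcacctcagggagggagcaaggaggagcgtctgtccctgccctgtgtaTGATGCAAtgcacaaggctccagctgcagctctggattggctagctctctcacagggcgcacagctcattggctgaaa
Chac1, plus strand, chr2:119350992-119351126: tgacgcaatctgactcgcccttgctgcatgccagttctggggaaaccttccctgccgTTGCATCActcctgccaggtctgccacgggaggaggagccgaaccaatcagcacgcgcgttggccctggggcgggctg
Trib3, minus strand, chr2:152344032-152344116: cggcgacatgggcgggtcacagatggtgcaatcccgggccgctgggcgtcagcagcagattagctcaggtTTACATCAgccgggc
Got1, minus strand, chr19:43524630-43524777: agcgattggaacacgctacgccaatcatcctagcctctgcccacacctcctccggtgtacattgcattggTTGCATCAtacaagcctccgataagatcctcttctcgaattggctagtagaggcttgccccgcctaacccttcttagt
Slc7a11, minus strand, chr3:50443585-50443749: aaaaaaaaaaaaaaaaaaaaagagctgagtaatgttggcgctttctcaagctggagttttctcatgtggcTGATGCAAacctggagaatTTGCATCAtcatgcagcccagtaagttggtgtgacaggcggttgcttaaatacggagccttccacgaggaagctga

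The element begins 23 bases before the start in Asns, 4 in Slc1a4, 103 in Pycr1, 193 in Chac1 and 102 in Got1, and 15 bases after the start in Trib3. Slc7a11 has it at 66 and again at 47 bases before the start, in opposite orientations. The remaining gene with the element was Slc7a7, in 2 of its promoters. Of the 8 genes, 5 rose by more than 1 on the log2 scale, Got1 fell, and Slc7a7 and Slc7a11 did not pass. Of all 38 members, with or without the element, 20 (52.6%) rose by more than 1. A link between element and change was not tested. The E-box CACGTG, to which MYC and MAX bind, was present in the promoters of Aldh18a1, which rose, and Slc43a1, which did not pass. That is 5.88% of the 34 genes, against 8.09% of all symbols.

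The groups were compared by limma over 11233 genes, with Benjamini-Hochberg adjustment over all of them (FDR), and a gene was called where its FDR was under 0.05. A log2FC is the mean of the CpG group minus the mean of the unstimulated group. Among the members, 27 of 38 (71.1%) rose, where 37.6% of all genes tested did, and 5 of 38 (13.2%) fell, where 36.7% did. With the study's additional threshold of a log2FC over 1, 20 members (52.6%) rose, against a background of 15.8%, and 3 (7.89%) fell by more than 1, against 15.3%. Without Cth the counts were 26 rising and 19 rising past 1, of 37. The median log2FC of the members was 1.04, and that of all genes tested 0.00333. The members were chosen with earlier results of these data known, so these contrasts are a description and not a test. Groups did not overlap in 32 of 38 members, which is near the 77.7% of all genes tested. The same 27 members were higher, and the same 5 lower, in the stimulated sample of every number. The share of all genes for that last count was not computed, so it is no trait of the members.

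**Figure D1:**
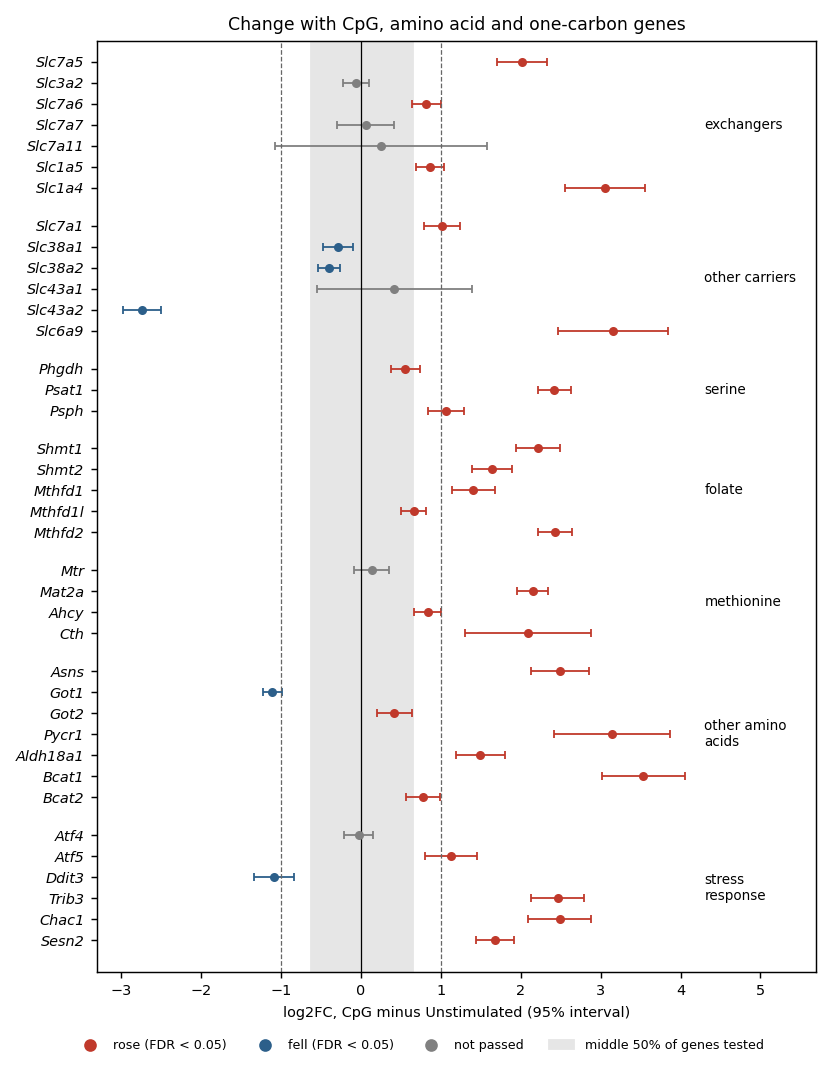
Log2FC (CpG minus unstimulated) of the 38 members with 95% intervals from limma, by role; red, rose; blue, fell; grey, not passed; the grey band holds the middle 50% of genes tested and dashed lines mark a log2FC of -1 and 1. Most members lie right of the band, Slc43a2 at -2.74 is the lowest, and Slc7a11 and Slc43a1 have the widest intervals among those not passed.

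**Figure D2:**
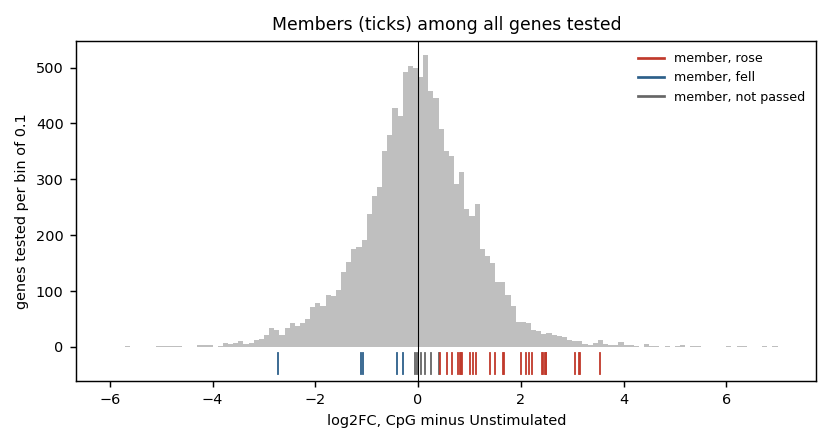
Histogram of the log2FC of the 11233 genes tested, in bins of 0.1, with the 38 members as ticks under the axis, colored by call. The genes as a whole center near 0 (median 0.00333), while the members extend from -2.74 to 3.53 with a median of 1.04.

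Summed over the 38 genes, transcripts of the set took 3648, 3378 and 3379 CPM in unstimulated samples 1 to 3, and 6263, 5274 and 5739 CPM in the CpG-stimulated ones. The ratio of the group means was 1.66. It was 3.3 for the 4 methionine and transsulfuration genes, 2.9 for the 5 folate enzymes and 2.48 for the 3 serine genes, and 1.92 for the 7 exchanger genes. It was 1.12 for the 7 genes of asparagine, aspartate, proline and branched-chain amino acids, 1.07 for the 6 other carriers and 1.05 for the 6 stress response genes. Such a sum mostly follows its most abundant genes. In the methionine group this was Mat2a, at 9.35 log2 CPM with CpG. Got1, at 8.01 without CpG, and Atf4, at 8.67, were the most abundant where the ratio was 1.12 and 1.05, although 6 of those 7 and 4 of those 6 genes rose.

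Of the 7 exchanger genes 4 rose (57.1%, against 37.6% of all genes tested), among them the carrier LAT1, while its partner chain did not pass. Slc7a5 encodes LAT1, which brings in leucine and other large neutral amino acids, and lies on the minus strand of chromosome 8 in GRCm38, from 121881150 to 121907694. Its level was 7.46, 7.08 and 7.03 log2 CPM in unstimulated samples 1 to 3, and 9.46, 8.94 and 9.21 with CpG. The groups were far apart, and the log2FC was 2.01 (SE 0.14, FDR = 6.12e-07 by limma), or 4.03-fold. Slc3a2, on chromosome 19, encodes the CD98 heavy chain that LAT1 and the other SLC7 exchangers of this set need to reach the cell surface. It was at 8.29 ± 0.10 without and 8.23 ± 0.10 log2 CPM with CpG (mean ± SD, n = 3 each), and the 95% interval of its log2FC was -0.23 to 0.11. Per kb of exon, Slc3a2 stood above Slc7a5 without stimulation (6.47 against 5.30 log2 CPM per kb) and below it with CpG (6.41 against 7.31). Within each sample the log2 ratio of Slc7a5 to Slc3a2 went from -1.10 ± 0.13 to 0.97 ± 0.29 (SD, n = 3).

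Of the other partners of CD98, Slc7a6, an exchanger of cationic for neutral amino acids, rose from 6.39 ± 0.10 to 7.21 ± 0.12 log2 CPM (SD, n = 3; log2FC 0.82). Slc7a7, which has a similar substrate range, was low and did not pass, at 2.599 without and 2.66 with CpG. Slc7a11, the cystine and glutamate exchanger, was scarce, at -1.47, 1.21 and 0.42 log2 CPM in unstimulated samples and -0.23, 0.61 and 0.55 with CpG. Its values overlapped and its log2FC of 0.25 had an interval of -1.07 to 1.58, so a change could not be seen at this level. Without unstimulated sample 1 that log2FC was -0.51. Sample 2 was its highest in both groups, as it was for Alas2, and the part of erythroid RNA in this was not tested.

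Both neutral amino acid exchangers of the SLC1 family rose, by different amounts. Slc1a5, or ASCT2, which carries glutamine among others, went from 6.79 ± 0.10 to 7.66 ± 0.12 log2 CPM (SD, n = 3; log2FC 0.86). Slc1a4, or ASCT1, which carries alanine, serine and cysteine, was at 2.10, 1.36 and 1.70 in unstimulated samples and at 5.19, 4.40 and 4.74 with CpG. Its log2FC of 3.06 (SE 0.22, FDR = 8.98e-07 by limma) placed it at rank 98 from the top of the 11233 genes, although it remained the less abundant of the pair, by 2.88 on the log2 scale with CpG.

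Among the 6 other carriers, of the SLC6, SLC7, SLC38 and SLC43 families, directions were mixed. Here 2 rose (33.3%, against 37.6% of all genes tested) and 3 fell (50%, against 36.7%), and the rising share is near the background. Slc7a1, the main carrier of arginine and lysine, was at 8.36, 8.12 and 8.04 log2 CPM without and 9.37, 9.10 and 9.11 with CpG. This is a log2FC of 1.01, at the edge of the threshold, and it did not pass when tested against a change of 1. Slc6a9, the glycine transporter GLYT1, was at 0.15, 1.16 and 0.51 in unstimulated and at 3.57, 3.33 and 4.37 in CpG-stimulated samples. Its log2FC was 3.15 (SE 0.31, FDR = 6.88e-06 by limma), rank 91. Exons of Ccdc24 on the other strand share 27.8% of the exon bases of Slc6a9, and Ccdc24 was at -1.46 or lower in all 6 samples.

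Slc43a2, or LAT4, a facilitated carrier of branched-chain amino acids, phenylalanine and methionine, went the other way. It was at 6.19, 6.0 and 6.41 log2 CPM without and 3.52, 3.46 and 3.41 with CpG. The groups were separated by more than 2 on the log2 scale, and the log2FC of -2.74 (SE 0.11, FDR = 2.9e-08 by limma) was the lowest of the 38 members and the 163rd lowest of all genes tested. LAT1 and LAT4 share leucine and phenylalanine as substrates, and the log2 ratio of Slc7a5 to Slc43a2 went from 0.99 ± 0.33 to 5.74 ± 0.24 (SD, n = 3). The related LAT3, Slc43a1, did not pass, with 0.50, 2.21 and 0.68 without and 1.04, 2.08 and 1.51 with CpG. Sample 2 was its highest in both groups, as it was for Alas2, and the part of erythroid RNA in this was not tested. Without unstimulated sample 2 its log2FC was 0.96 and passed (FDR = 0.0233 by limma).

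The sodium-coupled carriers of glutamine and other small neutral amino acids fell slightly from high levels. Slc38a2 went from 8.84 ± 0.08 to 8.44 ± 0.03 log2 CPM (log2FC -0.40) and Slc38a1 from 8.24 ± 0.13 to 7.96 ± 0.11 (SD, n = 3; log2FC -0.28). Slc38a1 did not pass when genes of any level were tested (FDR = 0.0891 by limma).

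**Figure D3:**
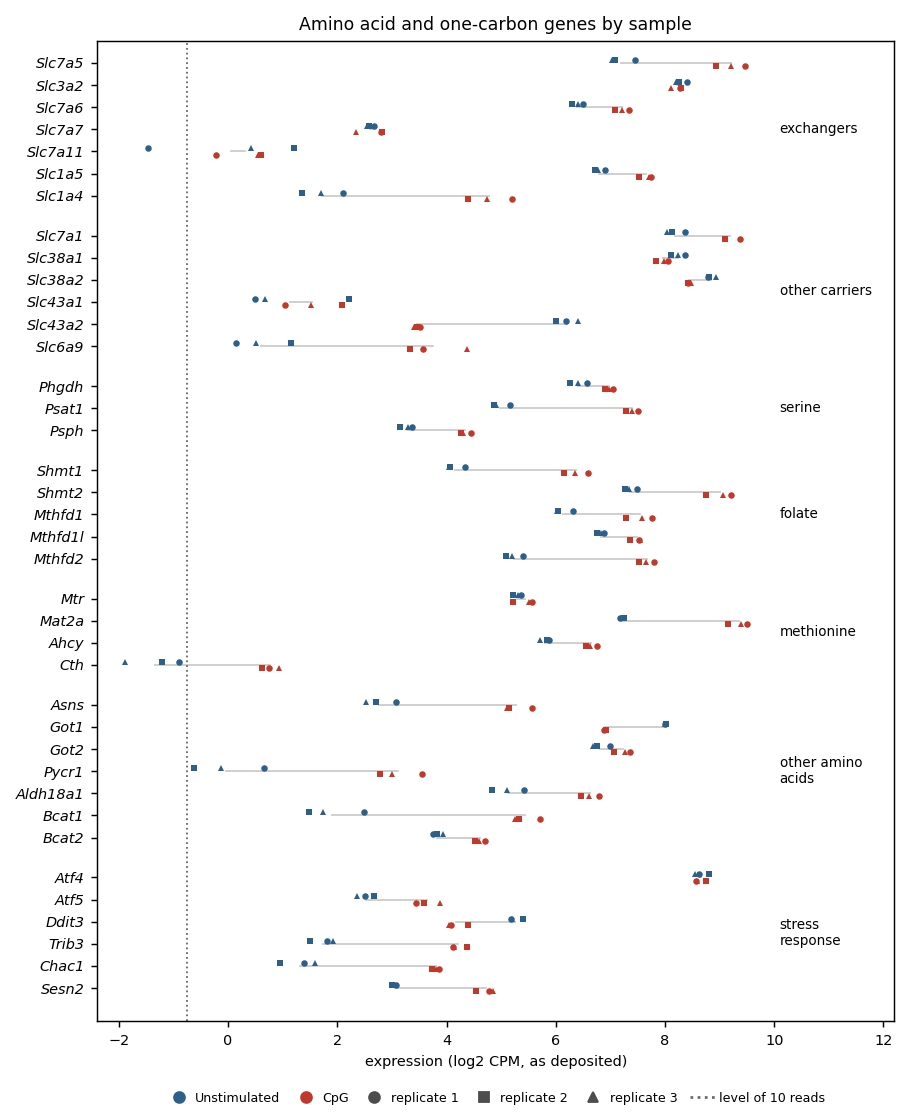
Deposited log2 CPM of each member in the 6 samples, by role; blue, unstimulated; red, CpG; circles, squares and triangles are replicate numbers 1, 2 and 3; grey lines join the group means and the dotted line is the level of 10 reads (-0.76). Serine, folate and most other enzymes show red to the right of blue without overlap. Slc43a2, Slc38a1, Slc38a2, Got1 and Ddit3 show the reverse, and Slc3a2 and Atf4 are among those without separation. Groups did not overlap in 77.7% of all genes tested.

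All 3 enzymes of serine synthesis rose, where 37.6% of all genes tested did, with the middle step rising most. Phgdh, the dehydrogenase that opens the pathway, went from 6.41 ± 0.15 to 6.97 ± 0.07 log2 CPM (SD, n = 3; log2FC 0.56, FDR = 0.000141 by limma). Psat1, the aminotransferase that follows it, was at 5.16, 4.87 and 4.91 without and at 7.51, 7.29 and 7.39 with CpG, a log2FC of 2.42 (SE 0.09, FDR = 2.72e-08 by limma) or 5.36-fold. Psph, the phosphatase that releases serine, was at 3.37, 3.16 and 3.30 without and at 4.45, 4.27 and 4.31 with CpG (log2FC 1.07). It did not pass when tested against a change of 1. Groups did not overlap for any of the 3 genes, as for 77.7% of all genes tested. The log2 ratio of Psat1 to Phgdh went from -1.44 ± 0.06 to 0.43 ± 0.04 (SD, n = 3).

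The 5 folate enzymes rose without exception, in the cytosol and in mitochondria, where 37.6% of all genes tested rose. Serine hydroxymethyltransferase, which moves a carbon from serine to tetrahydrofolate and leaves glycine, has a cytosolic form, Shmt1, and a mitochondrial one, Shmt2. Shmt1 was at 4.34, 4.06 and 4.05 log2 CPM without and 6.59, 6.16 and 6.35 with CpG, a log2FC of 2.22 (SE 0.12). Shmt2 was at 7.495, 7.27 and 7.33 without and 9.21, 8.75 and 9.07 with CpG, a log2FC of 1.65 (SE 0.11). Per kb of exon Shmt2 remained the higher of the pair, at 7.37 against 4.41 log2 CPM per kb with CpG, and was second among the members only to Atf4.

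Mthfd2, the mitochondrial enzyme that oxidizes methylene-tetrahydrofolate, changed most of the 5. It was at 5.39, 5.09 and 5.20 log2 CPM in unstimulated samples and at 7.81, 7.53 and 7.65 with CpG (log2FC 2.43, SE 0.09, FDR = 2.9e-08 by limma). Mthfd1l, which releases formate from the same mitochondrial route, rose by only 0.66, from 6.82 ± 0.07 to 7.48 ± 0.10 (SD, n = 3). Mthfd1, the cytosolic enzyme with 3 activities, was at 6.32, 6.05 and 6.03 without and 7.75, 7.28 and 7.58 with CpG (log2FC 1.41, SE 0.12). The log2 ratio of Mthfd2 to Mthfd1l went from -1.59 ± 0.09 to 0.18 ± 0.09, and that of Mthfd2 to Mthfd1 from -0.90 ± 0.06 to 0.13 ± 0.11 (SD, n = 3).

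In the methionine cycle, the genes differed by step. Mat2a, which makes S-adenosylmethionine from methionine, was at 7.17, 7.24 and 7.202 log2 CPM without and 9.51, 9.16 and 9.40 with CpG, a log2FC of 2.15 (SE 0.09, FDR = 3.13e-08 by limma). Ahcy, which clears the product of methylation reactions, rose from 5.80 ± 0.08 to 6.64 ± 0.10 (SD, n = 3; log2FC 0.84). Mtr, the methionine synthase that links the cycle to folate, was at 5.37, 5.22 and 5.31 without and at 5.57, 5.21 and 5.51 with CpG, and these ranges overlapped. Its log2FC of 0.14 had an interval of -0.09 to 0.36, and it passed only without CpG-stimulated sample 2 (log2FC 0.24, FDR = 0.0154 by limma). Cth, which makes cysteine from cystathionine, was at -0.90, -1.20 and -1.88 without and at 0.76, 0.62 and 0.93 with CpG, near the level of 10 reads throughout (log2FC 2.10, SE 0.35). On the log2(CPM + 1) scale its log2FC was 0.94, under the threshold of 1.

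Of the 7 genes of asparagine, aspartate, proline and branched-chain amino acid metabolism 6 rose (85.7%, against 37.6% of all genes tested) and 1 fell (14.3%, against 36.7%). The highest log2FC of the 38 members was that of Bcat1. Bcat1, the cytosolic aminotransferase of leucine, isoleucine and valine, was at 2.49, 1.47 and 1.75 log2 CPM without and at 5.715, 5.33 and 5.26 with CpG. Its log2FC of 3.53 (SE 0.23, FDR = 4.4e-07 by limma), or 11.6-fold, was rank 64 of all genes tested. Bcat2, the mitochondrial form, rose by 0.78, from 3.83 ± 0.09 to 4.61 ± 0.09 (SD, n = 3). The log2 ratio of Bcat1 to Bcat2 thus went from -1.93 ± 0.58 to 0.83 ± 0.18.

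Pycr1, which completes proline synthesis in mitochondria, was at 0.65, -0.62 and -0.13 log2 CPM without and at 3.545, 2.775 and 2.996 with CpG (log2FC 3.14, SE 0.32, FDR = 1.03e-05 by limma). Aldh18a1, which starts the same pathway from glutamate, was at 5.42, 4.84 and 5.11 without and 6.79, 6.46 and 6.62 with CpG (log2FC 1.497, SE 0.14). Asns, the asparagine synthetase, was at 3.07, 2.70 and 2.53 without and 5.56, 5.14 and 5.10 with CpG (log2FC 2.50, SE 0.16, FDR = 4.11e-07 by limma). In all 3 genes the lowest stimulated sample was above the highest unstimulated one by more than 1. Such gaps were not counted over all genes.

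The aspartate aminotransferases moved in opposite directions. Got1, the cytosolic form, was at 8.01, 8.02 and 8.01 log2 CPM without and at 6.88, 6.93 and 6.91 with CpG. With so little spread between samples, the log2FC of -1.10 had an SE of 0.05 (FDR = 7.28e-08 by limma), yet it did not pass when tested against a change of 1. Got2, the mitochondrial form, rose by 0.42, from 6.81 ± 0.16 to 7.23 ± 0.15 (SD, n = 3), and did not pass when genes of any level were tested (FDR = 0.0576 by limma). The log2 ratio of Got2 to Got1 went from -1.20 ± 0.16 to 0.32 ± 0.17.

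**Figure D4:**
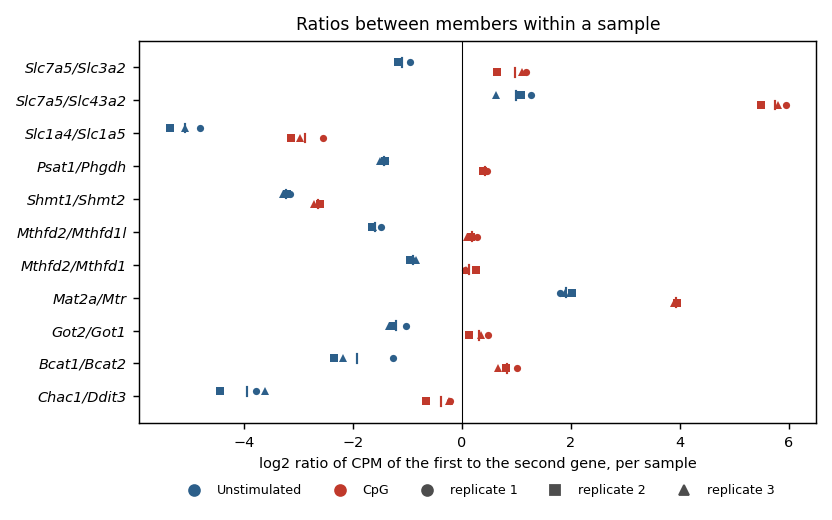
Log2 ratio of the CPM of one gene to that of another within each sample, for 11 pairs of members; blue, unstimulated; red, CpG; circles, squares and triangles are replicate numbers 1, 2 and 3, and bars are group means (n = 3). The groups do not overlap in any pair, but the pairs were chosen with the values known. The smallest shift was that of Shmt1/Shmt2 (0.57) and the largest that of Slc7a5/Slc43a2 (4.75).

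For all 11 ratios that were compared, the 3 stimulated samples lay on one side of the 3 unstimulated ones. The two-sided exact permutation p was 0.1 for each, also after Benjamini-Hochberg adjustment, which is the smallest that 3 samples against 3 can give. With the numbers taken as pairs the ratio moved the same way in 3 of 3 numbers for each, and the exact p was 0.25, the smallest that 3 pairs can give. The pairs were chosen with the values known, so their separation and these p values are a description and not a test. How often other pairs of genes separate was not computed. The pairs include enzymes of a shared step, a partner chain, and carriers of shared substrates.

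Of the 6 stress response genes 4 rose (66.7%, against 37.6% of all genes tested), 1 fell (16.7%, against 36.7%) and 1 did not pass. Atf4 was the most abundant member per kb of exon in both groups, and was at 8.63, 8.81 and 8.56 log2 CPM without and at 8.57, 8.75 and 8.59 with CpG. The interval of its log2FC, -0.21 to 0.15, includes 0. Ddit3, which encodes CHOP, a factor that promotes cell death under lasting stress, was at 5.18, 5.39 and 5.20 without and at 4.08, 4.40 and 4.04 with CpG (log2FC -1.08, SE 0.11, FDR = 1.01e-05 by limma). It did not pass when tested against a change of 1. Atf5, a relative of Atf4, was at 2.50, 2.68 and 2.37 without and at 3.45, 3.596 and 3.89 with CpG (log2FC 1.13, SE 0.15), which also did not pass that test.

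The other 3 genes of this group rose with clear gaps. Trib3, a pseudokinase known to dampen ATF4 and CHOP activity, was at 1.81, 1.49 and 1.93 log2 CPM without and at 4.11, 4.37 and 4.14 with CpG (log2FC 2.46, SE 0.15, FDR = 2.41e-07 by limma). Chac1, which degrades glutathione, was at 1.40, 0.95 and 1.59 without and at 3.86, 3.74 and 3.802 with CpG (log2FC 2.49, SE 0.17, FDR = 6.55e-07 by limma). Sesn2, a leucine sensor that restrains mTORC1, was at 3.08, 3.01 and 3.06 without and at 4.78, 4.55 and 4.85 with CpG (log2FC 1.68, SE 0.11). In this group Trib3 and Chac1 thus rose while Ddit3 fell, and the log2 ratio of Chac1 to Ddit3 went from -3.94 ± 0.44 to -0.38 ± 0.25 (SD, n = 3).

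Some members share exon bases with another gene on the opposite strand, and whether reads were counted by strand is not given. Cct6a, at 7.32 to 8.99 log2 CPM, shares 10.4% of the exon bases of Psph and rose itself (log2FC 1.51). Nup62 (1.42) and Il4i1 (2.69) each share 4.11% of those of Atf5. Oxa1l, at 5.20 to 6.36 log2 CPM, shares 7% of those of Slc7a7 and had a log2FC of -1.02. Smcr8 (-0.82) shares 4.74% of those of Shmt1, and Mars (0.93) shares 3.97% of those of Ddit3. For Bcat2 the overlapping 0610005C13Rik, with 15.9%, was at -1.21 or lower in all samples. The part of such reads in the values was not tested.

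The samples of number 1 tended to be highest within their group. For 20 of the 38 members (52.6%) sample 1 was the highest in both groups, against 19.0% of all genes tested, whereas sample 2 was so for 5 members (13.2%, against 14.6%) and sample 3 for 1 (2.63%, against 11.9%). Of the 20 members that rose past 1, 13 were highest in sample 1 of both groups and 0 in sample 2 or 3. Slc1a4, Bcat1, Pycr1 and Asns were among the 13, and all 5 that were highest in sample 2 of both groups, Slc7a11, Slc43a1, Got1, Atf4 and Ddit3, fell or did not pass. The deposited values of samples with the same number vary together over all genes, so these counts describe the numbers and not independent samples.

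Other genes of the same pathways were described from 5 lists, which were also chosen with earlier results of these data known. Of 24 further amino acid carriers, 14 were expressed highly enough to be tested, and 5 rose (35.7%) and 7 fell (50%), with a median log2FC of -0.30, where 37.6% of all genes tested rose and 36.7% fell. Slc7a3, a second carrier of cationic amino acids, was at -1.07, -1.54 and -2.18 log2 CPM without and at 4.32, 4.22 and 4.70 with CpG. Its log2FC of 6.01 (SE 0.28) was the seventh highest of all genes tested, and it passed the filter only through the CpG group. Slc15a3 (1.53), Slc25a13 (1.48), Slc25a22 (1.43) and Slc6a6 (0.96) rose as well. Slc15a4, a lysosomal histidine and peptide transporter that TLR9 signaling in plasmacytoid dendritic cells and B cells depends on, fell from 7.43 to 5.67 (log2FC -1.77). Slc36a4 (-1.31), Slc25a12 (-0.94), Slc36a1 (-0.93) and Slc16a10 (-0.90) fell. Of the mitochondrial aspartate and glutamate carriers, Slc25a13 thus rose and Slc25a12 fell.

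Of 30 further genes of the folate and methyl cycles, 26 were tested, and 17 rose (65.4%) and 4 fell (15.4%), against the same 37.6% and 36.7%, with a median log2FC of 0.63. Tyms, the thymidylate synthase that consumes a folate carbon unit, had the largest rise, from 0.46 to 2.83 log2 CPM (log2FC 2.37). The folate carriers Slc46a1 (2.18) and Slc19a1 (1.94), Gcsh of the glycine cleavage system (2.06) and the methionine salvage enzyme Mtap (1.70) followed, and Slc46a1 entered only through the CpG group. Mtrr, which reactivates methionine synthase, rose by 1.69, while Mtr itself did not pass. Sfxn1, a mitochondrial serine carrier, rose by 1.36, whereas its relative Sfxn3 fell from 5.27 to 2.51 (log2FC -2.76). Amt, another component of glycine cleavage, fell by 2.86 and entered only through the unstimulated group. Mat2b (-0.66), the regulatory partner of Mat2a, also fell.

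Among 23 other enzymes of amino acid metabolism, 19 were tested and 10 rose (52.6%, against 37.6% of all genes) and 3 fell (15.8%, against 36.7%), with a median of 0.44. Sds, a serine dehydratase (2.56), and Gpt2, a mitochondrial alanine aminotransferase (2.003), rose most, followed by Prodh (1.13) and Dbt (1.08). Asrgl1 (-1.40), Bckdha (-1.0) and Oat (-0.66) fell. Of 19 further stress response genes, 14 were tested, with 6 rising (42.9%, against 37.6%) and 3 falling (21.4%, against 36.7%) and a median of 0.14. Nars, the asparaginyl-tRNA synthetase (1.39), Eif2s1, the initiation factor subunit whose phosphorylation starts the response (1.24), Eif2ak2 (1.03), Wars (0.98) and Sars (0.39) rose. Eif2ak3, the endoplasmic reticulum kinase PERK, fell from 8.72 to 6.14 log2 CPM (log2FC -2.58), and Ddit4, an inhibitor of mTORC1, fell from 6.60 to 4.69 (log2FC -1.90). Eif2ak4, the kinase GCN2 that senses uncharged tRNA, rose by 0.23, and Eif2ak1 fell by 0.27. Nupr1, Vldlr, Gdf15, Fgf21 and Stc2, other genes of the response, were too low to be tested.

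Genes by which mTORC1 senses amino acids moved in both directions. Of 28 listed, 27 were tested. Of these 10 rose (37%, against 37.6%) and 12 fell (44.4%, against 36.7%), which is near the background for those that rose. Among them 7 (25.9%) fell by more than 1 against a background of 15.3%, while 1 (3.7%) rose by more than 1 against 15.8%. Sesn1 (-2.07) and Sesn3 (-1.70) fell while their relative Sesn2 rose. The arginine sensor Castor1, listed as Gatsl3, rose by 1.11, while its relative Castor2, listed as Gatsl2, fell by 1.92. Fnip1 (-1.63) and Rragd (-1.46) were also among the 5 that fell most. Mios (0.96), Sec13 (0.86), Mtor itself (0.84) and Seh1l (0.64) rose.

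**Figure D5:**
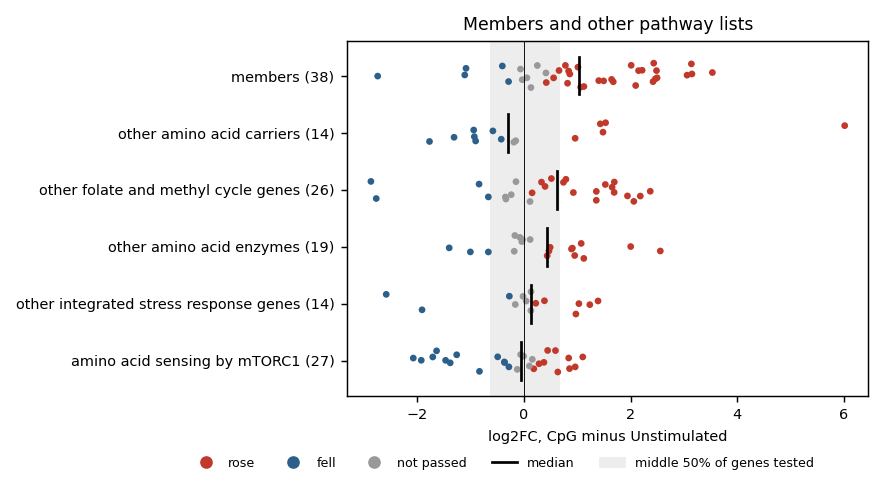
Log2FC (CpG minus unstimulated) of the members and of 5 other pathway lists, with the number of genes tested in brackets; red, rose; blue, fell; grey, not passed; black bars are medians and the grey band holds the middle 50% of all genes tested. The members have the highest median (1.04), followed by other folate and methyl cycle genes (0.63), and the carriers (-0.30) and mTORC1 sensing genes (-0.06) have medians under 0.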

How the data were processed

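The authors aligned paired reads of stranded poly(A) libraries to mm10 with STAR 2.6.1a, counted them per gene with featureCounts of Subread 2.0.1, and applied quantile normalization and voom. Whether counting used the strand is not given in the sources used here. The deposited values are log2 CPM, 1 file for each of 6 samples, and no counts were used. Groups and numbers come from the sample titles. Depth per sample cannot be read from quantile-normalized values, whose CPM sum to between 992384 and 1012400.

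Groups were compared in R 4.3.3 with limma 3.58.1 (lmFit, eBayes with trend) over all 11233 genes with more than 10 reads' worth in at least 3 samples, with FDR under 0.05 by the Benjamini-Hochberg method. Intervals are at 95%. The procedure was tested on simulated data. The labels name 3 mice but not the mouse of each sample. Number 3 differs in sex from numbers 1 and 2, and whether these 2 came from separate mice is not stated, so p values measure the spread between these samples, part of which may be technical.

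Deviations of same-numbered samples from their group means correlated at 0.435, 0.224 and 0.3 over genes, those of differently numbered samples at -0.281 to 0.0279. The main fit, which gave the SE, intervals, FDR and ranks, did not use the numbers. They were taken to pair the samples only in an alternative fit with a replicate block and in a second test of the gene ratios. The deposited values were shifted by number, as 8043 values in 4344 genes lie below the level of no reads, none of them in a member, and this can add to those correlations. Lists of genes and members were chosen with earlier results of these data known. Named from the other lists are up to 5 called genes with the largest log2FC in each direction, apart from some that are not reported here; Mtrr, Sfxn1, Eif2ak4 and the untested genes were named after their values were seen. Exon lengths are from GENCODE M21 (GRCm38), promoters from RefSeq (GRCm38.p6). Ddit3 has 2 gene models there, and the longer was used. Older symbols were matched through RefSeq synonyms. Alternatives changed the filter, scale, variance model, centring, block and samples.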

Additional observations from a re-analysis of the deposited data

How the results depend on the processing

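Of 601 values of the 38 members under alternatives of filter, scale, variance model, centring, replicate block and samples left out, 592 kept direction and call, 2 lost the call (Slc38a1 and Got2 with no filter), 2 gained it (Slc43a1 and Mtr without a sample) and 5, in 3 genes that do not pass, changed sign without a sample: Slc7a7 ranged from -0.02 to 0.21, Slc7a11 from -0.51 to 0.83 and Atf4 from -0.084 to 0.045. Cth was tested only with all 3 CpG samples kept. With the replicate block, 27 members rose, 5 fell and all 38 calls were the same. Tested against a log2FC of 1 with treat, 914 genes rose and 968 fell, and of the members 17 rose and 1, Slc43a2, fell, as this asks for more evidence. Without single samples 18 to 20 members rose past 1, and on the log2(CPM + 1) scale 18, as Cth (0.94) and Psph (0.99) then lay under 1. Among other members low in unstimulated samples, that scale moved Slc7a11 to 0.042, Slc43a1 to 0.27, Pycr1 to 2.26 and Slc6a9 to 2.51. Pairing the numbers in the 11 ratios was added after the data were seen.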
